A study of Mus musculus with 18 samples.

Results

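The cytosolic ribosomal protein genes encode the proteins that, with ribosomal RNA, make up the ribosomes of the cytoplasm. They were taken as the rows of the count table whose mouse symbol is Rpl or Rps followed by a number and at most a closing a, x or l, together with Rplp0, Rplp1, Rplp2 and Rpsa, without pseudogenes and S6 kinases. This gave 81 of 27179 rows, of which 50 belong to the large subunit of the ribosome and 31 to the small subunit. The rule used names only and no measured value. RNA-seq was made from half-brain samples of 18 wild-type C57BL/6J mice, an inbred laboratory strain, that were 4 months old and were gavaged daily for 14 days. The vehicle group received the same solution without glyphosate and holds 5 mice (2 males, 3 females). Glyphosate, the herbicide, was given at 125 mg/kg to 5 mice (3 males, 2 females), at 250 mg/kg to 4 mice (3 males, 1 female) and at 500 mg/kg to 4 mice (2 males, 2 females). The question was how expression in the brain changed with dose. The study's text also calls the sequenced tissue hippocampal, so which brain regions each sample held is uncertain.

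Each ribosome needs its proteins in nearly equal amounts, and their genes are transcribed at high rates in nearly every cell. Most of their mRNAs begin with a C followed by a run of pyrimidines, the terminal oligopyrimidine (TOP) tract, through which mTORC1 and the RNA-binding protein LARP1 control how much of each is translated. In neurons these mRNAs are also carried into axons and dendrites, and their level is known to shift with nutrients, stress and growth signals.

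Total counts ran from 3948096 to 11732885 per mouse, and 18050.0 to 58026 of them fell on the 81 genes. Mice G4 (500 mg/kg, replicate 1) and G9 (vehicle, replicate 3) stood apart from the other libraries, and the summed level of 7 glutamatergic neuron markers was 653 CPM in G4 and 645 CPM in G9, and between 1636 and 4792 CPM in the remaining 16. The main results are also given without them. Neuronal, oligodendrocyte and astrocyte markers were detected in all 18 mice, and the summed level of the 3 blood markers measured reached at most 11.6 CPM in any mouse.

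To show what these genes share at their start, the TOP tract was looked for in the RefSeq promoter windows (GRCm38.p6, 250 bases before to 50 bases after the annotated start), which were found for 61 of the 81 genes. A C at most 5 bases from the start and followed by at least 4 pyrimidines was present in 28 of the 61, or 45.9%, against 18.5% of all 27025 promoters. By subunit it was 16 of 38 large subunit promoters and 12 of 23 small subunit promoters. Of the members with a tract, the 3 of each subunit with the smallest p in the dose regression described further on and the 1 with the largest slope are printed, leaving out Rpl32l, which has a tract and the largest slope of all but is a processed pseudogene in GENCODE. They were chosen after their values were seen and are shown as 20 bases before and 20 bases from the annotated start on the transcribed strand with the tract in capitals.

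Rpl31: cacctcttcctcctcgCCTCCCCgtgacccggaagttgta
Rpl35: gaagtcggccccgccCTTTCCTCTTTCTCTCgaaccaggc
Rpl12: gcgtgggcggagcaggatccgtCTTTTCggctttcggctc
Rpl14: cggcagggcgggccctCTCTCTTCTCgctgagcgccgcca
Rps26: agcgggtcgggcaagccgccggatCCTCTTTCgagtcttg
Rps21: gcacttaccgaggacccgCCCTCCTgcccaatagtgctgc
Rps9: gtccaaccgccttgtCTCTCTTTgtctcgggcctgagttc
Rps15a: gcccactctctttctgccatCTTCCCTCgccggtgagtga

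The windows printed are Rpl31 chr1:39367831-39367870 on the plus strand, Rpl35 chr2:39005112-39005151 on the minus strand, Rpl12 chr2:32961692-32961731 on the plus strand, Rpl14 chr9:120571497-120571536 on the plus strand, Rps26 chr10:128626487-128626526 on the minus strand, Rps21 chr2:180257359-180257398 on the plus strand, Rps9 chr7:3704021-3704060 on the plus strand and Rps15a chr7:118116128-118116167 on the minus strand. Their tracts are 6 to 16 bases long, and the 16-base run of Rpl35 is the longest of the 8. The Ets-family motif CCGGAAG, searched on both strands and seen downstream of the tract in Rpl31, was present in 24 of the 61 windows (39.3%) and in 9.1% of all promoters. The YY1 motif AAGATGGC, on both strands, was present in 4 (6.6%, against 2.9%), and the TATA box letters TATAAA, searched from 40 to 20 bases before the start on the transcribed strand, in 0 (0%, against 2.1%). A match describes letters at an annotated start, which need not be the start used in brain. The median dose slope was -0.28 over the 26 tested members with a tract and -0.34 over the 30 with a promoter window and no tract.

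The levels of the genes differed widely. Levels are CPM, counts scaled to a fixed library total after TMM normalization, divided by the length of the main transcript in kb when genes are compared. Among large subunit genes the highest were Rpl41, the smallest ribosomal protein, at 429.8 CPM per kb, Rplp1, a protein of the acidic stalk that recruits translation factors, at 372, and Rpl15 at 237. Among small subunit genes they were Rps15 at 256, Rps2 at 225 and Rps15a at 181 CPM per kb. Of the tested genes Rpl32 was the lowest with a length at 3.17 CPM per kb, and Rps25 the lowest of the small subunit at 11.3. Rps20 followed at 13.5, where the transcript used, 3706 bases long, is the longest of the family and its level without the division was 49.9 CPM. The median of the tested genes was 59.2 in the large and 57.5 in the small subunit.

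The paralogs with tissue-restricted expression were close to absent. Rpl3l, the striated muscle form of Rpl3, had 37 counts in all 18 libraries together, Rpl39l, a testis form of Rpl39, had 6, and Rpl10l, a testis form of Rpl10, had 0 counts. Rps27l, a p53-responsive relative of Rps27, had 147 counts. Rpl39 itself, which is expressed broadly, had 18 counts, and Rpl32 a mean of 12.7 counts per library. Those 2 levels are among the lowest of the family, and how reads that match several places were counted is not given in the sources used here. Windows of 100 bases that also occur, letter for letter, in annotated transcripts of other genes, such as pseudogenes, were counted. They made up a median of 37.5% of a member's main transcript, over 50% in 31 members, 1.80% in Rpl39 and 0% in Rpl32. Copies that differ by some bases or are not annotated are missed by this search, so a low share does not show that copies are absent. The median slope was -0.34 in the 21 tested members with under 25% of windows shared and -0.29 in the 54 with more.

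The filter on low counts passed 76 of the 81 genes, 46 of the large and 30 of the small subunit. The 5 genes that it left out were Rpl3l, Rpl10l, Rpl39, Rpl39l and Rps27l. One of the 76, Rpl32l, is a protein-coding gene in RefSeq and a processed pseudogene in GENCODE, with 118 counts in all.

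In vehicle mice G1, G5, G9, G15 and G18, 125 mg/kg mice G25, G29, G34, G40 and G45, 250 mg/kg mice G49, G64, G66 and G71, and 500 mg/kg mice G4, G79, G87 and G90, the order used for values per mouse throughout, the family took a small share of all counts. The 50 large subunit genes took 0.239, 0.282, 0.437, 0.338 and 0.339% in vehicle mice, 0.285, 0.252, 0.290, 0.304 and 0.338% at 125 mg/kg, 0.289, 0.312, 0.225 and 0.257% at 250 mg/kg, 0.317, 0.251, 0.259 and 0.319% at 500 mg/kg. Small subunit genes, 31 in all, took 0.139, 0.167, 0.246, 0.182 and 0.196% in vehicle mice, 0.168, 0.150, 0.172, 0.170 and 0.193% at 125 mg/kg, 0.168, 0.188, 0.133 and 0.156% at 250 mg/kg, 0.183, 0.147, 0.152 and 0.189% at 500 mg/kg. Both subunits were highest in vehicle mouse G9, and lowest in G66 at 250 mg/kg with vehicle mouse G1 next, so that the groups overlapped at every dose. The share of the 81 genes together was 0.513% ± 0.114 in the vehicle group (SD, 5 mice), 0.465% ± 0.0462 in the 5 mice at 125 mg/kg, 0.432% ± 0.0607 in the 4 at 250 mg/kg and 0.454% ± 0.0577 in the 4 at 500 mg/kg. The differences between these means are smaller than the SD of the vehicle group. Without G4 and G9 the share was 0.439% ± 0.0599 at 500 mg/kg (3 mice) and 0.471% ± 0.0726 in the vehicle group (4 mice). Small structural, ribosomal and mitochondrial RNA rows took 5.03% ± 1.79 of counts in the vehicle group, 4.31% ± 0.808 in mice given 125 mg/kg, 3.51% ± 0.197 in those given 250 mg/kg and 3.45% ± 0.537 in those given 500 mg/kg. They were highest in G9 at 7.87% and lowest in G79 at 2.90% with G1 next, and their part in the share of the family was not tested. With these rows and the row of the highest count taken out of the total, the large subunit took 0.318% ± 0.0379 at 500 mg/kg and 0.370% ± 0.0964 in the vehicle group, and the small subunit 0.186% ± 0.0218 and 0.210% ± 0.0517. The 2 subunits kept a near-constant proportion, with a ratio of large to small summed CPM between 1.65 and 1.86 over the 18 mice.

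**Figure D1:**
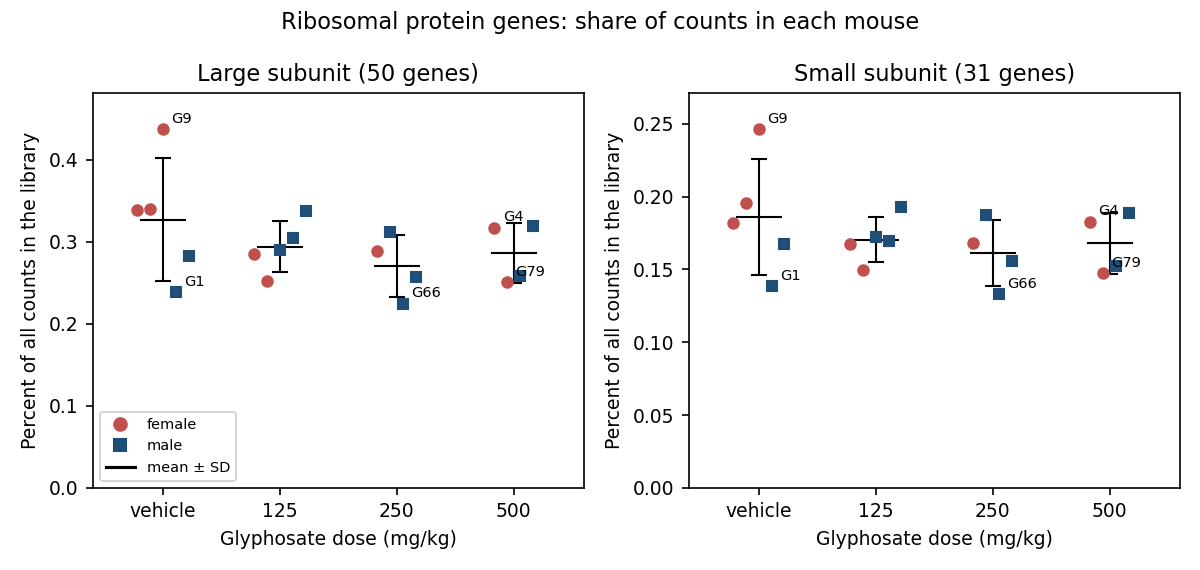
Percent of all counts that fell on the large (left) and small (right) subunit genes in each mouse, by dose group, with circles for females, squares for males and lines for the group mean ± SD. Vehicle mouse G9 is highest at 0.437% and 0.246%, and vehicle male G1, at 0.239% and 0.139%, lies below all 4 mice at 500 mg/kg.

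Most ribosomal protein genes had a small negative slope with dose, and no member passed the adjusted test of edgeR. The dose regression of edgeR gives a slope in log2 units per 500 mg/kg, with sex in the model. The median slope was -0.29 over the 46 large subunit genes and -0.31 over the 30 small subunit genes, against 0.01 over all 15863 genes tested. A negative slope was found for 43 of 46 and 27 of 30, where 48.8% of all genes had one. At an adjusted p under 0.05 edgeR called 0 of 76 members in either direction, where it called 0.0441% of all genes as falling and 0.246% as rising. At an unadjusted p under 0.05 it had 12 large and 9 small subunit genes with a negative slope, or 27.6% of the members against 5.28% of all genes, and 0 with a positive slope. Genes measured in the same libraries are not independent of each other. DESeq2, the tool of the authors, called 2 members as falling, Rpl31 and Rps13, where it called 0.282% of all genes as falling. limma-voom called 0 members, where it called 0.315% of all genes, with 12 large and 8 small subunit genes negative at an unadjusted p under 0.05, where 4.5% of all genes were.

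**Figure D2:**
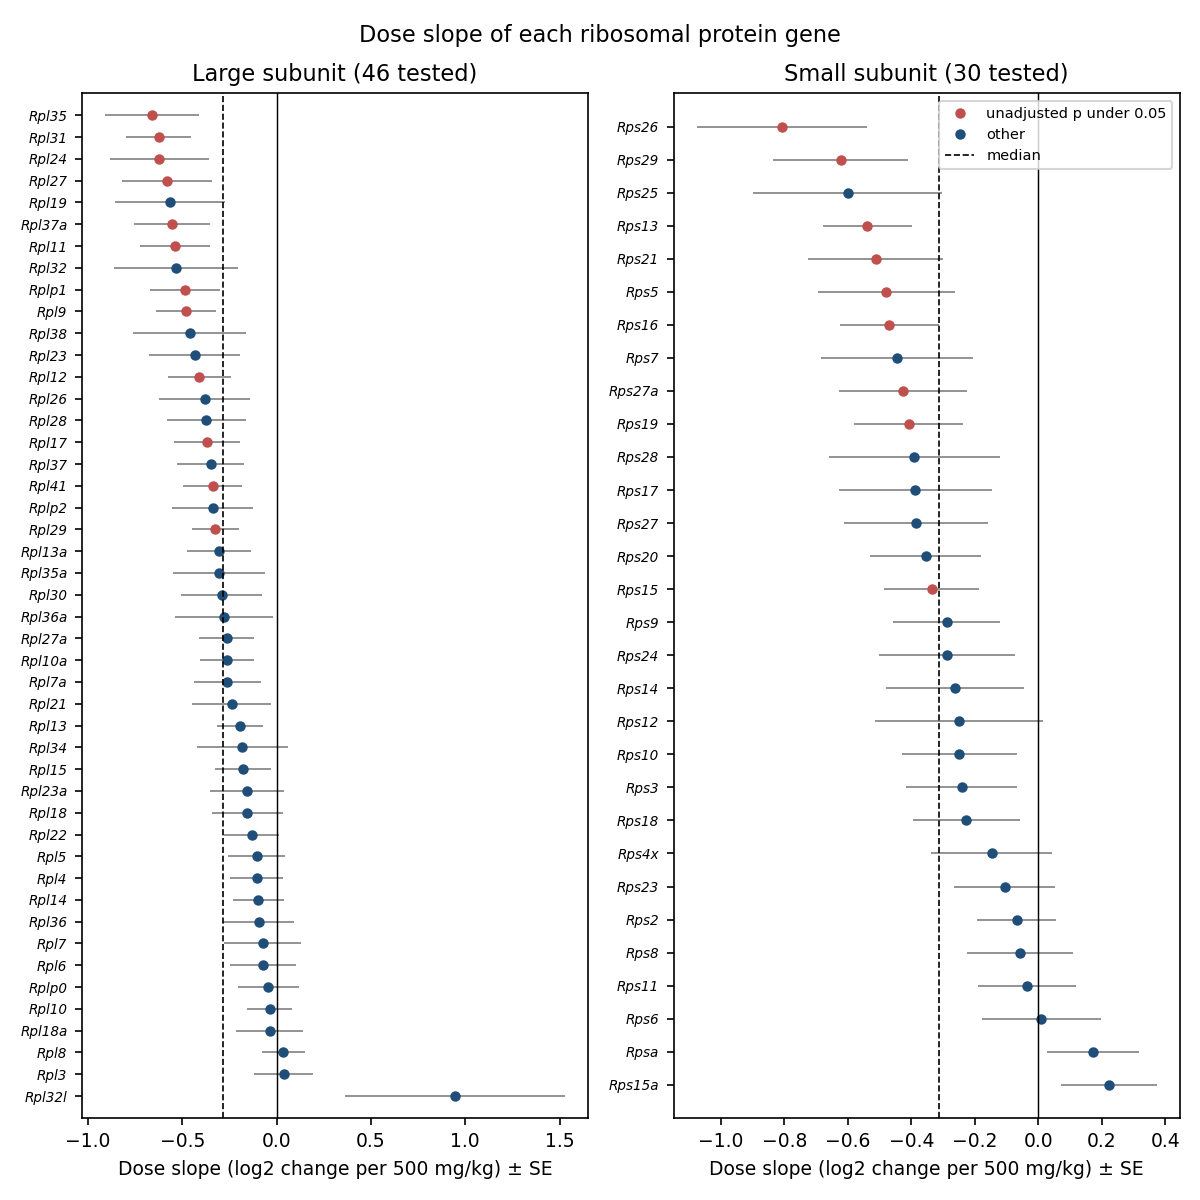
Dose slope of each tested large (left) and small (right) subunit gene in log2 units per 500 mg/kg with its standard error from edgeR, ordered by slope, with red points for an unadjusted p under 0.05 and a dashed line at the median. Of the 76 points 70 lie left of 0, and the medians are -0.29 and -0.31.

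Bulk tissue cannot separate fewer cells of a type from less RNA per cell. In several marker lists of brain cell types most or all dose slopes shared a sign. All 6 oligodendrocyte markers had positive slopes, with a summed level of 5491 to 15315 CPM at 500 mg/kg and 3787 to 6693 CPM in vehicle mice. Of 7 glutamatergic neuron markers 6 had negative slopes, with 653 to 2410.2 CPM at 500 mg/kg and 645 to 4083 CPM in vehicle mice. All 4 midbrain dopamine neuron markers had positive slopes, of which 2 passed edgeR's adjusted test, with 65.9 to 317 CPM at 500 mg/kg and 18.1 to 95.5 CPM in vehicle mice. All 4 choroid plexus markers had negative slopes, with 19.4 to 244 and 6.01 to 1122 CPM. Without G4 and G9 the summed levels were 5491 to 9549 CPM at 500 mg/kg and 3787 to 6693 CPM in vehicle mice for oligodendrocytes, 1685 to 2410.2 and 2382 to 4083 CPM for glutamatergic neurons, 65.9 to 131 and 18.1 to 95.5 CPM for dopamine neurons, and 55.9 to 244 and 6.01 to 438 CPM for choroid plexus. No marker of oligodendrocytes, glutamatergic neurons or choroid plexus passed edgeR's adjusted test. Of these 4 lists no marker was at 0 in all mice, and their part in the ribosomal protein slopes was not tested. The GABAergic, astrocyte, microglial, endothelial and blood lists had 3 of 5, 1 of 5, 3 of 5, 1 of 4 and 0 of 1 tested markers with a negative slope, and none was called.

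Other short coding transcripts also had a median slope below 0. The main transcripts of the ribosomal protein genes have a median length of 705 bases, against 2907.5 over all coding genes tested. The median slope of other coding genes with a main transcript under 1000 bases was -0.12 (886 genes), and it was 0.04 for 4000 bases or more (4250 genes). With the length taken over all annotated exons the 235 other genes under 1000 bases had a median of -0.22. Within the family, members with a coding length under 400 bases had a median slope of -0.35 (24 genes), those of 400 to under 600 bases -0.38 (30 genes) and those of 600 bases or more -0.10 (21 genes), while other coding genes of these classes had medians of -0.14, -0.06 and 0.02. These classes of coding length were chosen after the data were seen. Without G4 and G9 the members' medians were -0.41, -0.40 and -0.11, and those of the other coding genes -0.17, -0.11 and 0.01. Across the 75 tested members with a coding length, which share the same 18 libraries, Spearman's correlation of slope with coding length was 0.54 and with mean level 0.67, given as descriptions. The part of transcript length in the slopes was not tested.

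**Figure D3:**
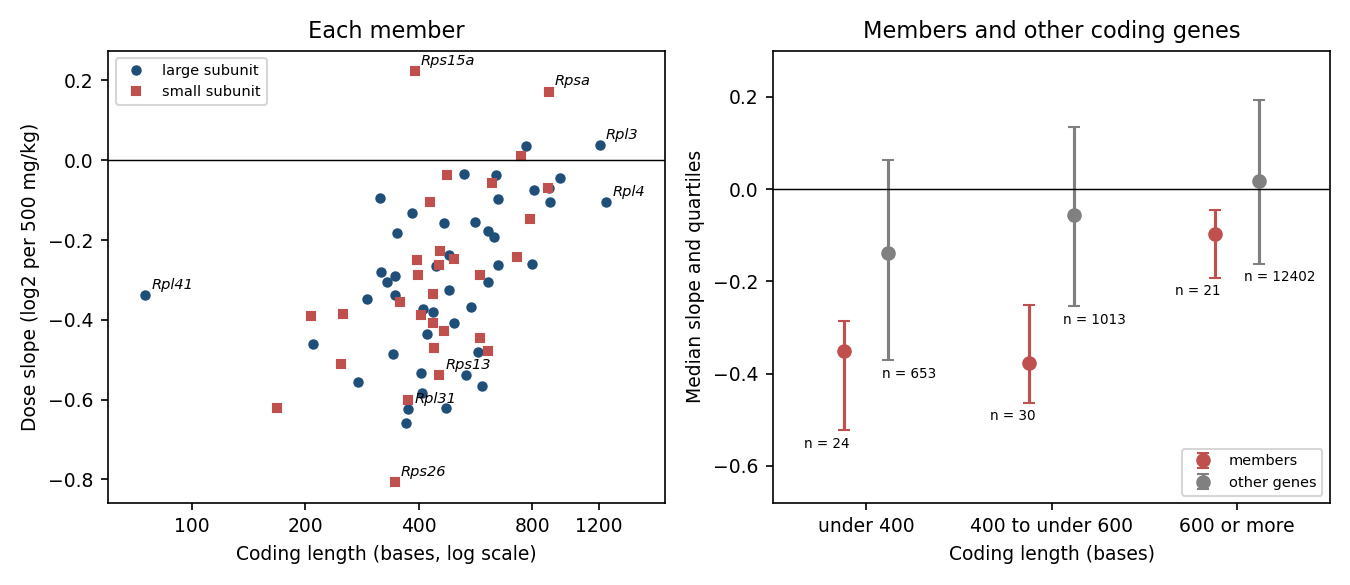
Left, dose slope in log2 units per 500 mg/kg against coding length in bases on a log axis, 1 point per tested member with a coding length (75 genes). Right, median slope with quartiles over genes for members (red) and other coding genes (grey) in 3 classes of coding length, where the members' medians are -0.35, -0.38 and -0.10. The classes were chosen after the data were seen.

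Among large subunit genes Rpl31, a protein near the exit of the nascent chain tunnel (Entrez gene 114641, chromosome 1 from 39367851 to 39371911 in GRCm38.p6), had the smallest p. Its level was 18.9, 18.1, 27.4, 22.9 and 24.97 CPM in vehicle mice, 17.5, 19.0, 17.5, 21.2 and 20.6 at 125 mg/kg, 17.5, 20.4, 11.7 and 14.9 at 250 mg/kg and 20.2, 10.6, 14.2 and 12.5 at 500 mg/kg. G4 at 500 mg/kg was inside the vehicle range and the other 3 mice at that dose were below all 5 vehicle mice. The means were 14.4 ± 4.16 CPM at 500 mg/kg and 22.5 ± 3.94 CPM in vehicle mice (SD, n = 4 and 5), and the slope was -0.62 (standard error 0.17, edgeR adjusted p = 0.137). DESeq2's likelihood ratio test gave an adjusted p of 0.0391.

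Rpl9 (Entrez gene 20005, chromosome 5 from 65388364 to 65391431), which lies near the site where translation factors bind, had 28.7, 44.4, 54.4, 47.6 and 44.8 CPM in vehicle mice, 40.1, 31.03, 35.2, 44.0 and 38.1 at 125 mg/kg, 28.9, 41.5, 28.3 and 32.6 at 250 mg/kg and 35.7, 26.6, 29.3 and 33.0 at 500 mg/kg. Vehicle mouse G1 was at the level of the 500 mg/kg mice, and the other 4 vehicle mice were above all of them. The slope was -0.48 (standard error 0.16, edgeR adjusted p = 0.207).

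Rpl11, which with Rpl5 and the 5S RNA binds Mdm2 when ribosome assembly fails (Entrez gene 67025, chromosome 4 from 136049354 to 136053393), had 11.9, 14.8, 23.9, 17.98 and 19.8 CPM in vehicle mice, 13.0, 10.96, 14.0, 15.5 and 16.8 at 125 mg/kg, 13.1, 15.2, 9.84 and 10.7 at 250 mg/kg and 12.5, 10.7, 11.04 and 13.1 at 500 mg/kg. Values at 500 mg/kg again spanned a narrow range that vehicle mouse G1 shared, and the highest value was that of G9. The slope was -0.54 (standard error 0.19, edgeR adjusted p = 0.220). Its partner Rpl5 averaged 77.2 ± 12.2 CPM at 500 mg/kg and 84.3 ± 17.6 CPM in vehicle mice, a slope of -0.11 (standard error 0.15, edgeR adjusted p = 0.812).

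The next smallest p values of the large subunit were those of Rpl37a, Rpl35 and Rplp1. Rpl37a, a zinc finger protein, averaged 11.2 ± 2.501 CPM at 500 mg/kg and 16.8 ± 5.43 CPM in vehicle mice with a slope of -0.56 (standard error 0.20). Rpl35, which lies at the tunnel exit, averaged 13.6 ± 2.80 and 22.3 ± 7.61 CPM with a slope of -0.66 (standard error 0.25). The stalk protein Rplp1 averaged 157 ± 28.2 and 215 ± 43.7 CPM with a slope of -0.48 (standard error 0.18). Of the other stalk proteins, Rplp2 had a slope of -0.34 (standard error 0.22) and Rplp0, which anchors them, -0.04 (standard error 0.16). None of these 5 passed edgeR's test, with adjusted p values of 0.247 for Rpl37a, 0.266 for Rpl35, 0.269 for Rplp1, 0.523 for Rplp2 and 0.937 for Rplp0.

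Rpl32l, Rpl3 and Rpl8 had the 3 positive slopes of the large subunit. Rpl8, a protein next to the peptidyl transferase centre (Entrez gene 26961, chromosome 15 from 76904071 to 76906318), had 128, 150.02, 193, 161 and 157 CPM in vehicle mice, 181, 165, 150.2, 169 and 187 at 125 mg/kg, 160.1, 152, 132 and 141 at 250 mg/kg and 176, 147, 166 and 174 at 500 mg/kg. Groups overlapped throughout, and the slope was 0.03 (standard error 0.11, edgeR adjusted p = 0.929). Rpl3, also near that centre, averaged 135 ± 13.9 CPM at 500 mg/kg and 133 ± 30.5 CPM in vehicle mice with a slope of 0.04 (standard error 0.16, edgeR adjusted p = 0.945). Rpl32l had the largest slope, 0.95 (standard error 0.58, edgeR adjusted p = 0.509), at levels of 0 to 2.18 CPM. It had 10 or more counts only in G64 and G71 at 250 mg/kg and in G79 and G90 at 500 mg/kg. Leaving out 1 mouse gave slopes of 0.21 to 1.27 for Rpl32l in the 17 such fits that tested it. Rpl10, a late-joining protein of the subunit, had -0.04, Rpl22, which also binds RNA outside the ribosome, -0.13, Rpl38, linked in mice to the translation of Hox mRNAs, -0.46, Rpl41 -0.34 and Rpl15 -0.18. None of them passed edgeR's adjusted test, with adjusted p values from 0.360 to 0.927.

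In the small subunit Rps13, a protein at the bridge between the subunits (Entrez gene 68052, chromosome 7 from 116331507 to 116334190), had the smallest p of all members. Its level was 18.8, 19.8, 25.7, 25.3 and 23.8 CPM in vehicle mice, 23.7, 19.0, 15.9, 15.5 and 24.2 at 125 mg/kg, 19.0, 17.0, 14.1 and 13.8 at 250 mg/kg and 17.5, 13.7, 16.3 and 14.0 at 500 mg/kg. All 4 mice at 500 mg/kg were below all 5 vehicle mice. The means were 15.4 ± 1.80 CPM at 500 mg/kg and 22.7 ± 3.19 CPM in vehicle mice (SD, n = 4 and 5). Its slope was -0.54 (standard error 0.14, edgeR adjusted p = 0.103), and DESeq2's adjusted p was 0.0275. Rps19, whose human counterpart is mutated in Diamond-Blackfan anaemia, was the only other member whose 500 mg/kg mice were all below the vehicle mice, with 10.2, 9.57, 11.97, 10.6 and 9.42 CPM in vehicle mice, 8.86, 8.18, 8.84, 9.65 and 10.4 at 125 mg/kg, 10.1, 10.5, 6.39 and 7.45 at 250 mg/kg and 5.27, 9.05, 8.28 and 8.41 at 500 mg/kg. Its slope was -0.41 (standard error 0.17, edgeR adjusted p = 0.319). These are 2 of 76 members, where 0.933% of all genes had such a separation downwards, and 0 had one upwards, where 2.32% of all genes did.

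Rps16 (Entrez gene 20055, chromosome 7 from 28350689 to 28352698), a protein of the head of the small subunit, had 54.8, 69.8, 96.3, 75.5 and 77.2 CPM in vehicle mice, 69.3, 69.2, 74.9, 77.9 and 84.3 at 125 mg/kg, 66.3, 51.5, 47.5 and 60.9 at 250 mg/kg and 65.2, 44.1, 51.2 and 63.2 at 500 mg/kg. Mice at 125 mg/kg were all inside the vehicle range, and at 250 and 500 mg/kg all 8 mice were below 4 of the 5 vehicle mice. The slope was -0.47 (standard error 0.16, edgeR adjusted p = 0.207). Rps26, which lies where mRNA leaves the ribosome (Entrez gene 27370, chromosome 10 from 128624529 to 128626506), had the most negative slope of all 76 members at -0.81 (standard error 0.27, edgeR adjusted p = 0.207). Its level was 10.6, 15.7, 25.9, 20.4 and 17.8 CPM in vehicle mice, 16.3, 8.18, 10.3, 14.0 and 17.9 at 125 mg/kg, 9.87, 14.0, 7.38 and 10.3 at 250 mg/kg and 13.4, 6.37, 9.59 and 10.7 at 500 mg/kg. Vehicle mouse G1 was within the range of the 500 mg/kg mice and G4 was the highest of these. Rps29, a small zinc-binding protein of the head, averaged 23.8 ± 7.21 CPM at 500 mg/kg and 37.8 ± 8.65 CPM in vehicle mice with a slope of -0.62 (standard error 0.21, edgeR adjusted p = 0.216), and Rps21 29.7 ± 5.26 and 43.8 ± 11.02 CPM with -0.51 (standard error 0.21, edgeR adjusted p = 0.310).

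The 3 largest slopes of the small subunit were positive and did not pass. Rps15a (Entrez gene 267019, chromosome 7 from 118104374 to 118116147) had 76.7, 106, 145, 104 and 129 CPM in vehicle mice, 124, 85.0, 113, 112 and 128 at 125 mg/kg, 125, 93.7, 113 and 109 at 250 mg/kg and 151, 108, 125 and 134 at 500 mg/kg. Its 500 mg/kg range lay inside the vehicle range but for G4, and the slope was 0.22 (standard error 0.15, edgeR adjusted p = 0.547). Rpsa, the laminin receptor precursor that is also a ribosomal protein, averaged 226 ± 20.7 CPM at 500 mg/kg and 196 ± 39.03 CPM in vehicle mice, with a slope of 0.17 (standard error 0.14, edgeR adjusted p = 0.648). Rps6, the substrate of the S6 kinases, averaged 128 ± 25.7 and 129 ± 43.4 CPM with a slope of 0.01 (standard error 0.19, edgeR adjusted p = 0.990). Rps27a, which is made as a fusion with ubiquitin, had a slope of -0.43 (standard error 0.20, edgeR adjusted p = 0.377), Rps27 -0.39 (standard error 0.23, edgeR adjusted p = 0.481) and Rps4x -0.15 (standard error 0.19, edgeR adjusted p = 0.785). The highly expressed Rps15 and Rps2 had slopes of -0.34 and -0.07, and Rps20 and Rps25 -0.35 and -0.60, with edgeR adjusted p values of 0.344 to 0.854.

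**Figure D4:**
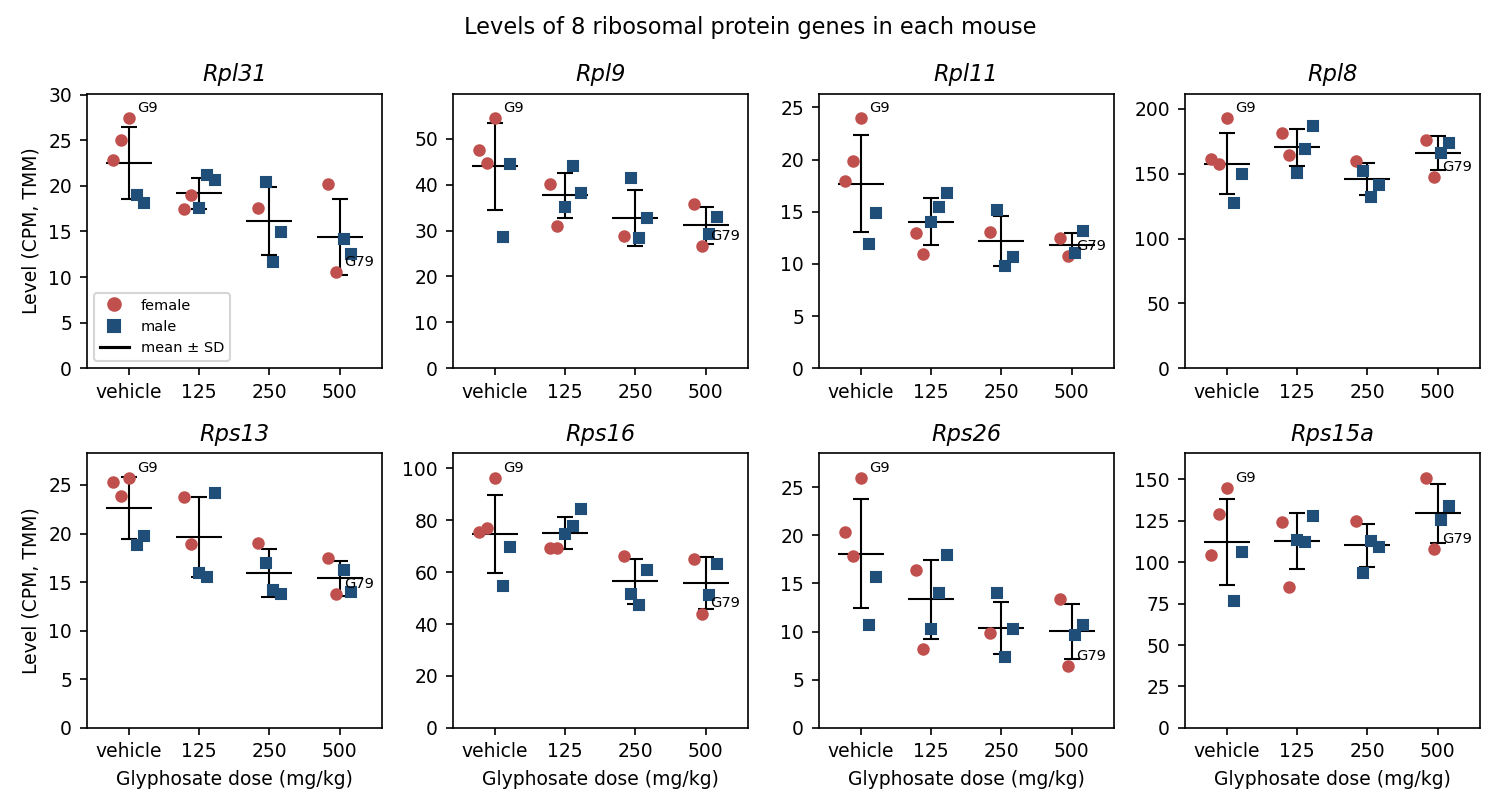
Level in CPM of 4 large (top) and 4 small (bottom) subunit genes in each mouse by dose group, with circles for females, squares for males and lines for the mean ± SD. For Rps13 the 500 mg/kg mice (13.7 to 17.5 CPM) all lie below the vehicle mice (18.8 to 25.7 CPM), while Rpl8 and Rps15a overlap at every dose.

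Against vehicle the median of each subunit was below 0 at each dose, and the medians at 250 and 500 mg/kg were close to each other. At 125 mg/kg the median log2 fold change was -0.10 for the large and -0.13 for the small subunit, with 0 of 76 members below an unadjusted p of 0.05 in the negative direction, where 6.51% of all genes were. In the positive direction 1 of 76 members was, Rps2, where 740 of all 15863 genes were. Rps2 had a log2 fold change of 0.31 (unadjusted p = 0.00399, adjusted p = 0.326 from edgeR). Its means were 256 ± 15.1 CPM at 125 mg/kg and 206 ± 22.6 CPM in vehicle mice. At 250 mg/kg the medians were -0.28 and -0.27, with 7 large and 6 small subunit genes at an unadjusted p under 0.05, all negative, where 1.56% of all genes were so. At 500 mg/kg they were -0.29 and -0.32, with 10 large and 6 small subunit genes, where 4.07% of all genes were so. The adjusted test of edgeR called 0 members at each dose, where it called 0.0% of all genes at 125 and 250 mg/kg and 0.0189% at 500 mg/kg, and DESeq2 also called 0 members at each, where it called 0.221, 0.111 and 0.964% of all genes. The unadjusted counts hung on single mice. Over the fits that leave out 1 mouse, 4.12 to 7.41% of all genes were negative at an unadjusted p under 0.05 in the 125 mg/kg comparison, 1.05 to 2.75% in that of 250 mg/kg and 2.78 to 6.41% in that of 500 mg/kg. At 250 mg/kg leaving out 1 mouse gave 0 to 23 large subunit genes, with the most without vehicle mouse G1, 17 without G64, 4 without G90, 3 without G18, 2 without G49, 1 without G15 and 0 without each of G9, G66 and G71. It gave 2 to 14 small subunit genes, with 14 without G1, 12 without G64, 3 without each of G49 and G66 and 2 without G9. At 500 mg/kg it gave 3 to 20 large subunit genes, with 20 without G1, 6 without each of G18 and G87, 5 without G15, 4 without G9 and 3 without G79. It gave 3 to 13 small subunit genes, with 13 without G1, 10 without G4 and 3 without each of G9 and G79. At 125 mg/kg the count of negative genes went up to 4 large and 3 small subunit genes without G1 and to 1 small subunit gene without G45, and the large subunit median was 0.001 without G29. The 3 comparisons share the 5 vehicle mice. The vehicle group had the highest mean for 56 of the 76 members, where 19.6% of all genes had it there, and the lowest mean was at 250 mg/kg for 45 and at 500 mg/kg for 27. The means fell in dose order through all 4 groups for 20. No share over all genes is given for these last 3 counts, so they describe the members only.

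The test for any difference among the 4 groups called 0 members with edgeR (0.0441% of all genes), with 9 at an unadjusted p under 0.05, which is 11.8% of members against 15% of all genes. A departure from linearity in dose was called for 0 members (0.0063% of all genes), with 1 at an unadjusted p under 0.05, or 1.32% against 11.7% of all genes.

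Slopes were more negative in females than in males for most members, and no member passed the test of that difference. In the 8 females alone the median slope was -0.49 for the large and -0.54 for the small subunit. Without G4 and G9 the 6 other females gave -0.57 and -0.63. In the 10 males alone it was -0.04 and -0.14. There 1 large and 0 small subunit genes were negative at an unadjusted p under 0.05, or 1.32% of members against 3.45% of all genes. No such count is given for females alone, of whom 1 mouse was at 250 mg/kg. The slope was lower in females than in males for 74 of the 76 members, where it was for 49.2% of all genes, and the median difference, male minus female, was 0.42. edgeR's interaction test called 0 members (0.0% of all genes), and 2 members, Rpl7a and Rps10, had an unadjusted p under 0.05, or 2.63% against 1.65% of all genes. In share of counts, females lay above males in the vehicle group and below them at 125 mg/kg, and the sexes overlapped at 500 mg/kg. The 81 genes took 0.683, 0.520 and 0.535% of counts in vehicle females, against 0.377 and 0.450% in vehicle males. At 125 mg/kg they took 0.453 and 0.402% in females and 0.463, 0.474 and 0.531% in males. At 250 mg/kg they took 0.457% in the 1 female and 0.499, 0.358 and 0.413% in males. At 500 mg/kg they took 0.500 and 0.398% in females and 0.411 and 0.508% in males. The vehicle group holds 3 females of 5 and the 250 mg/kg group 1 of 4.

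Single mice weighed on the result. Of the 76 members, 60 had their highest level in vehicle mouse G9, 25 their lowest in G66 at 250 mg/kg, 23 in G79 at 500 mg/kg and 11 in vehicle mouse G1. Without G9 the medians were -0.19 and -0.24, with 8 large and 5 small subunit genes negative at an unadjusted p under 0.05, where 8.34% of all genes were. Without G79 they were -0.20 and -0.22, with 3 and 5 such genes (4.52% of all genes), and without G90 the count of the small subunit was 14 (4.41% of all genes). Without G4 they were -0.35 and -0.38, with 25 such genes in both subunits together (3.52% of all genes), and without both G4 and G9 -0.26 and -0.28, with 11 and 9 such genes (6.24% of all genes), an alternative added after the data were seen. The sample titles also carry a number from 41 to 46 whose meaning is not given, shared by vehicle and 500 mg/kg mice (46) and by vehicle and 125 mg/kg mice (43), while all 250 mg/kg mice have 45. Within 43 and 46 the vehicle mice are female and the glyphosate mice male. Numbers other than 43, 45 and 46 each hold mice of 1 dose and 1 sex, so they add nothing to a slope fitted within numbers. The sex term of such a fit rests in part on 45, which holds 1 female, G49. Vehicle males all have 41, and vehicle females have 43 or 46. With the title number as a block, added after the data were seen, the medians were -0.46 and -0.43, with 0 members called by edgeR and 4 large and 1 small subunit genes negative at an unadjusted p under 0.05, where 1.37% of all genes were. With 1 surrogate variable, a hidden source of variation estimated by sva, they were -0.40 and -0.45, with 28 and 19 such genes (5.16% of all genes) and 0 called by edgeR. In the fit without the 500 mg/kg group the medians were -0.51 and -0.46 per 500 mg/kg, and in the fit without the vehicle group -0.19 and -0.23. Without the 500 mg/kg group 6 large and 6 small subunit genes were negative at an unadjusted p under 0.05. That is 16% of the 75 members tested, against 1.13% of all genes. Without the vehicle group 0 large and 4 small subunit genes were, or 5.33% of the 75 members tested, against 8.18% of all genes.

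**Figure D5:**
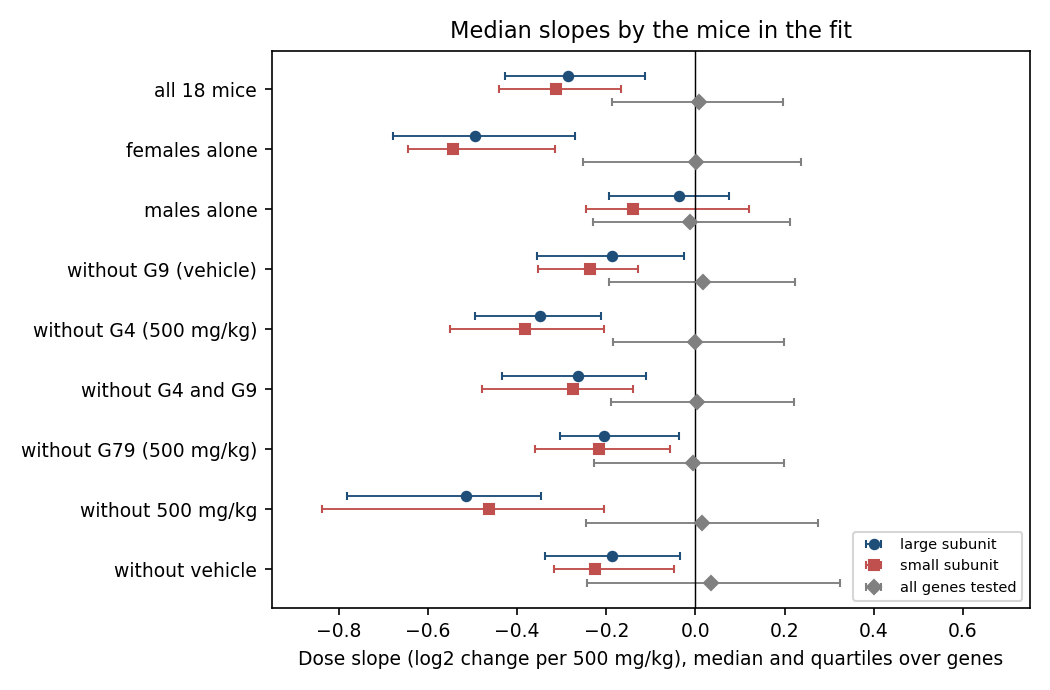
Median dose slope with quartiles over genes, in log2 units per 500 mg/kg, for the large subunit (circles), the small subunit (squares) and all genes tested (diamonds), in fits with different mice. The members' medians are below 0 in each of the 9 fits, nearest to it in males alone (-0.04 and -0.14).

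Some ribosomal protein genes carry names that the rule does not take. Fau, a ubiquitin-like fusion to the small subunit protein eS30, had a slope of -0.30, Rps3a1 -0.26, the signalling scaffold Rack1 of the small subunit -0.26, and the paralogs Rpl22l1 -0.24, Rpl36al 0.03 and Rpl7l1 0.11, with edgeR adjusted p values of 0.395 to 0.977. Rps4l, which RefSeq lists as a pseudogene and which was therefore left out, averaged 31.2 ± 7.59 CPM at 500 mg/kg and 21.7 ± 7.13 CPM in vehicle mice, with a slope of 0.62 (edgeR adjusted p = 0.208). Of 36 rows named as ribosomal protein pseudogenes 15 were tested, with 11 negative slopes and a median of -0.19.

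Other gene lists of translation had medians nearer to 0. Of all 15863 genes tested, 5.28% had a negative dose slope at an unadjusted p under 0.05, and 1254 genes had a positive one. Of 23 further TOP mRNAs, such as elongation factors, 19 had a negative slope, the median was -0.14 and edgeR and DESeq2 called 0, with 1 gene in each direction at an unadjusted p under 0.05. These were Eef1b2, an exchange factor subunit of the elongation machinery (slope -0.53), and Eef1d, its partner (slope 0.29). Of 38 initiation and termination factors 26 were negative, with a median of -0.09, 0 called by either tool and 0 at an unadjusted p under 0.05. Of 42 ribosome biogenesis genes 25 were negative, with a median of -0.05 and 0 called by either tool. At an unadjusted p under 0.05 4.76% of them, or 2 genes, were negative, near the share over all genes. These were the ribosomal RNA transcription factor Ubtf (slope -0.33) and the assembly factor Nip7 (slope -0.39).

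Of 23 genes of mTORC1 and S6 kinase signalling 12 were negative, with a median of -0.03 and 0 called by edgeR. At an unadjusted p under 0.05 there were 0 negative and 2 positive genes. DESeq2 called 1 of the 23 as rising, where it called 1.12% of all genes so. This was Ddit4, an inhibitor of mTORC1 that glucocorticoids induce, which averaged 146 ± 28.8 CPM at 500 mg/kg and 81.2 ± 12.5 CPM in vehicle mice. Its slope was 0.78 (standard error 0.18, adjusted p = 0.0582 from edgeR and 0.00625 from DESeq2). Larp1, which holds TOP mRNAs, had a slope of 0.23 (edgeR adjusted p = 0.360). Of 77 tested proteins of the mitochondrial ribosome 41 were negative, with a median of -0.03 and 0 called by either tool. At an unadjusted p under 0.05 there were 4 negative genes, or 5.19% against 5.28% of all genes.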

How the data were processed

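The authors extracted RNA from flash-frozen brain tissue, made stranded total RNA libraries after ribosomal RNA depletion, used STAR 2.7.5b for alignment to GRCm38 and deposited raw counts per gene (Entrez IDs) from featureCounts. MultiQC 1.12 and DESeq2 1.34.0 are also in the submitters' processing notes. The annotation release and the treatment of reads that match several places are not given in the sources used here. Of 27179 rows 25275 were found in RefSeq, and 25293 had a symbol from RefSeq or, failing that, GENCODE.

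Counts were analysed as deposited in R 4.3.3 with edgeR 4.0.16 (TMM scaling, filterByExpr over dose groups at a minimum of 10 counts, quasi-likelihood F test, Benjamini-Hochberg adjustment over the 15863 genes that passed, threshold 0.05). The biological coefficient of variation was 25.8%. The dose regression used dose divided by 500 mg/kg with sex as covariate. Separate tests took dose as 4 groups, asked whether members left a line, and compared the slopes of males and females. DESeq2 1.42.0 (likelihood ratio test on dose, Wald test against vehicle), limma 3.58.1 (voom), sva 3.50.0 (1 surrogate variable), other filters, normalizations, dose codings and subsets of mice were alternatives. Of these fits only the edgeR dose regression was tested on simulated counts, with planted slopes larger in size than the medians reported here. The mice are separate animals.

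The members, gene lists and markers were chosen with earlier results of these data known. Named members are those called by edgeR or DESeq2, the 6 with the smallest p and the 3 largest slopes of each subunit, the 3 highest and 3 lowest per kb, and genes with a role or paralog of their own; Rps2 at 125 mg/kg, Rpl7a and Rps10, and the genes named from the other lists, were named after their values were seen. Per kb levels used the main coding transcript in GENCODE.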

Additional observations from a re-analysis of the deposited data

Results flagged for a closer look

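In the 125 mg/kg group the level of Rpl3 was 154.3 CPM in mouse G45 and between 116 and 127 CPM in the other 4 mice, a gap larger than Dixon's 95% limit for 5 samples. It was 1 of 140 gene-by-group sets of levels looked at, and chance alone flags about 1 in 20 of them.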

How the results depend on the processing

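The median dose slopes of both subunits were below 0 under every alternative run, but the large subunit median was -0.036 in males alone. edgeR called 0 members in the dose regression and against vehicle under every alternative, while DESeq2 called 1 large and 1 small subunit gene as falling with dose. Leaving out 1 mouse gave large subunit medians of -0.384 to -0.188 in the dose regression and of -0.178 to 0.001234 at 125 mg/kg against vehicle, where it turned without mouse G29. Slopes near 0 turned sign in some fits, and so did larger ones such as those of Rpsa and Rps15a. Rps6 was -0.002523 with no filter, -0.01935 with no sex covariate, -0.02298 with dose as rank, -0.2808 without the 500 mg/kg mice, -0.2919 in females alone and -0.1623 with 1 surrogate variable. Rpl3 was -0.1314 without the 500 mg/kg mice, -0.1971 in females and -0.07865 with the surrogate variable, and Rpl8 -0.05787, -0.1053 and -0.03411 in these fits and -0.02666 without vehicle mice. Rps2 was 0.2702 without the 500 mg/kg mice and 0.02534 with the surrogate variable, Rpsa -0.2007 without the 500 mg/kg mice, and Rpl5 0.06709 without vehicle mice. In females without G4 and G9 the medians were -0.566 for the large and -0.632 for the small subunit, and Rpl3 was -0.2107, Rpl8 -0.1337, Rps15a -0.04361 and Rps6 -0.4012. With the title number as a block Rpl3 was -0.1576 and Rps6 -0.2526. Both were added after the data were seen. In males alone Rpl5 was 0.01406, Rpl10 0.03424, Rplp0 0.08324 and Rps4x 0.07095. Leaving out 1 mouse gave -0.1059 to 0.1569 for Rps6, -0.02897 to 0.1328 for Rpl3, -0.0126 to 0.1077 for Rpl8, -0.09185 to 0.03218 for Rpl10 and -0.1396 to 0.05247 for Rplp0. The causes were not tested. With 1 surrogate variable 28 large and 19 small subunit genes had a negative slope at an unadjusted p under 0.05, where 5.16% of all genes did, and edgeR's smallest adjusted p was 0.0774. No paired analysis was possible because the replicate numbers were given in accession order and pair no mice; the number in the sample titles pairs mice of some groups only. With 4 or 5 mice per group and a median of about -0.3 log2 units, changes of this size were not called for single genes at this depth and spread.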
